A study of Homo sapiens with 11 samples.

Results

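The respiratory complexes II to V were examined as the set of genes whose symbol in the platform annotation starts with COX and a digit, UQCR, ATP5 or SDH, together with CYC1, SURF1, SCO1, SCO2 and BCS1L. This rule took 67 of the 18836 annotated genes on the arrays and 110 probes. Of these, 84 probes of 58 genes passed the filter on low signals, a detection p-value under 0.01 on at least 5 of the 11 arrays, and 79 of the 84 passed it on every array. The set held 62 subunits, assembly factors and regulators and 5 pseudogenes or gene copies that are listed as pseudogenes. The rule used names only and no measured value. Counts per complex cover these members, which are not all genes of a complex, and its other genes were not analysed here.

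Cells of the HEK293T line, which derives from human embryonic kidney and takes up DNA readily, were transfected by lipofectamine with wild type DFNA5 (wtDFNA5, 5 arrays) or mutant DFNA5 (mutDFNA5, 6 arrays). DFNA5, now named GSDME, encodes gasdermin E, and the mutations of families with this dominantly inherited hearing loss make its transcript skip an exon. Both groups were the same line, with the same transfection reagent and medium, and they differed by the construct, so every change below is mutDFNA5 relative to wtDFNA5 and not relative to untransfected or empty-vector cells, which were not analysed here. The labels give 6 h after transfection for the harvest and 12 h for the RNA extraction, and the replicates are described as biologically independent. The comparison asked whether the transcripts of these complexes differ between cells transfected with the mutant and with the wild type construct.

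The mitochondrial respiratory chain passes electrons from nutrients to oxygen, and ATP synthase uses the proton gradient that this builds. Complex II (succinate dehydrogenase) feeds electrons from succinate into ubiquinone, complex III (cytochrome bc1) hands them to cytochrome c, complex IV (cytochrome c oxidase) reduces oxygen, and complex V is ATP synthase. Complex II is encoded in the nucleus alone, while complexes III, IV and V also hold subunits from mitochondrial DNA, which the rule did not take.

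Each array detected between 14029 and 15443 probes, and precision rests on the 5 and 6 arrays of the groups. The array of wtDFNA5 replicate 4 stood apart, with the lowest median signal before normalization (6.90 on the log2 scale, against 7.04 to 7.33 on the other arrays) and the lowest weight (0.56) when arrays were weighted by their fit. Its signals also spread least before normalization, with an SD of 1.36 against 1.49 to 1.56 on the other arrays. Of the HEK293T markers, EYA1, NEFL, NEFM, VIM and KRT18 were detected on all 11 arrays and KRT8, LHX1 and PAX2 on none. NEFM was up-regulated in mutDFNA5 (change 0.75, adjusted p = 8.9e-07). Of markers of other cell types, CD14 of blood (8 arrays), PECAM1 of endothelium (9) and ACTA1 of muscle (9) passed the detection filter. Their adjusted p were 0.816, 0.866 and 0.482, and their group means, 7.49 to 7.61, lay near the lowest detected signals. The other CD14 probe and the other measured markers of these types (PTPRC, CD3E, HBB, CDH5, VWF and CKM) were not detected on any array. Those of liver and fibroblasts did not pass the filter. The part of the detected markers in the results was not tested. The 1 probe of the transfected gene, GSDME, lay between 7.78 and 8.34 with wtDFNA5 and between 7.74 and 8.33 with mutDFNA5. Its log2 change was 0.03 (SE 0.11, adjusted p = 0.908), and whether this probe lies within the transfected cDNA is not given in the sources used here. The GSDME values therefore do not show how much of either construct was expressed.

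Of the 84 member probes, 3 were down-regulated, against 4.31% of all probes tested. Promoters are shown for the 3 members that these probes measured. Each runs from 250 bases before to 50 bases after the start of the gene in RefSeq (GRCh38.p14), 5′ to 3′ on the gene's strand, and capitals mark a match to a searched motif. ATP5PD lies at chr17:75046920-75047219 on the minus strand, COX15 at chr10:99732078-99732377 on the minus strand and UQCR10 at chr22:29767119-29767418 on the plus strand.
ATP5PD: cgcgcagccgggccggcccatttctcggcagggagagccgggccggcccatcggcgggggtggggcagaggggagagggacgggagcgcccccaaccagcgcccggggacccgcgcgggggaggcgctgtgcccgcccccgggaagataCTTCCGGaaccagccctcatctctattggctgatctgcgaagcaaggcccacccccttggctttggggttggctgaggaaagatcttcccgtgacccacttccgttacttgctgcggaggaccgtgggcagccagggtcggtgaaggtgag
COX15: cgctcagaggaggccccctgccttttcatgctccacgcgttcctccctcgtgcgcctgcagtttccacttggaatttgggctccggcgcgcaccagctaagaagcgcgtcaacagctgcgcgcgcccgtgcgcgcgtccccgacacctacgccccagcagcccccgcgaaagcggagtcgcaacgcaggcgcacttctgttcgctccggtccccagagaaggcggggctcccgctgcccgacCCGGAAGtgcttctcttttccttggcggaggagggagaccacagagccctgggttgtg
UQCR10: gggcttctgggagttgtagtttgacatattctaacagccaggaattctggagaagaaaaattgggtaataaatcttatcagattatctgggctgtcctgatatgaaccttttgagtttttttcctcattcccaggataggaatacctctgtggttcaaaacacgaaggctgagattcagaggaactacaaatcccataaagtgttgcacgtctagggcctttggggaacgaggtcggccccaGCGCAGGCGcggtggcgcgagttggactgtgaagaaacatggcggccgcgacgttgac

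The motifs were those that respiratory gene promoters are known for, namely GCGCANGCG of NRF1, CCGGAAG of ETS factors such as GABPA, and AAGATGGCG of YY1, on both strands. The end of the ETS motif and the start of the YY1 motif share their letters, so that matches of these can overlap. In ATP5PD the capitals are an ETS match in reverse orientation at position -101 from the start of the gene. In COX15 they are an ETS match and in UQCR10 an NRF1 match, each at position -8. A match describes these letters and does not show that a factor was bound.

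RefSeq promoters matched 49 of the 62 members that are not pseudogenes. An NRF1 match stood in 17 of the 49 promoters (34.7%), against 11.02% of the promoters of 15843 coding genes and 8.05% of all 27305 promoters in the table. An ETS match stood in 20 (40.8%, against 14.2% of coding genes and 10.7% of all), and a YY1 match in 3 (6.12%, against 2.74% and 1.85%). At least 1 of the 3 motifs was in 30 of the 49 (61.2%), against 24.7% of coding genes and 18.3% of all promoters. SDHA, the flavoprotein of complex II, held 4 NRF1 matches, and ATP5PF, a peripheral stalk subunit of ATP synthase, held all 3 motifs. An NRF1 site that matches on both strands was counted once for each strand, so the 4 matches may be fewer sites. The 5 members in the table without a detected probe, among them the tissue-restricted COX6A2, COX6B2 and COX7B2, held 1 match, an NRF1 match in COX8C.

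**Figure D1:**
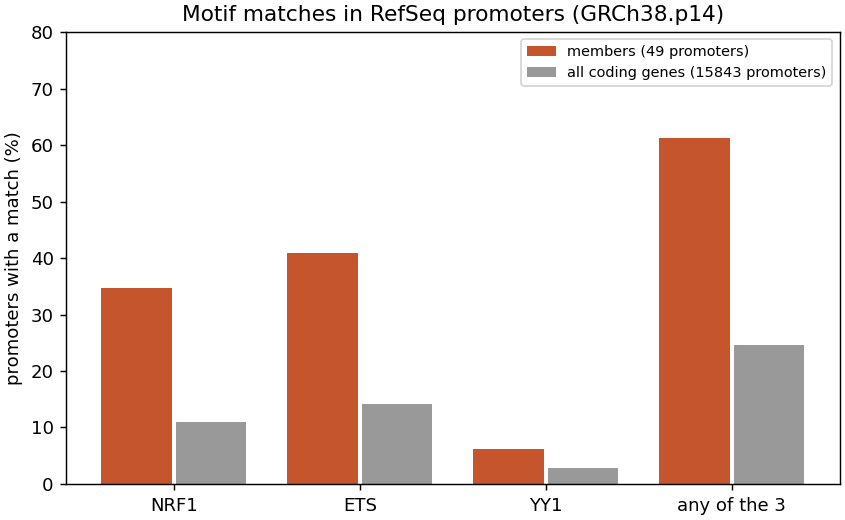
Share of promoters (percent, y axis) with a match to the NRF1, ETS or YY1 motif or to any of the 3, for the 49 member promoters (red) and the promoters of 15843 coding genes (grey). The member share was higher for each motif, 61.2% against 24.7% for any of the 3.

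Transcripts of the 4 complexes differed little between mutDFNA5 and wtDFNA5. Of the 84 probes, 3 were significantly down-regulated in mutDFNA5 (adjusted p under 0.05, limma with Benjamini-Hochberg adjustment over 14542 probes) and 0 were up-regulated, while 4.31% of all probes tested were down-regulated and 3.91% up-regulated. The 3 probes measured COX15, an assembly factor of complex IV that takes part in making its heme a, ATP5PD, a peripheral stalk subunit of complex V, and UQCR10, a small subunit of complex III. Before adjustment 10 of the 84 probes had a p under 0.05, 8 lower and 2 higher, against 23.1% of all probes. The median log2 change of the 84 probes was -0.03, against -0.004 over all probes, and 56.0% of them lay below 0, against 51.0%. With arrays scaled to a common median of all probes the members' median was 0.04, against 0.07 over all probes, and 32.1% of them lay below 0, against 32.5%. Groups did not overlap for 4 probes, all lower in mutDFNA5 (COX15, ATP5PD, UQCR10 and ATP5PB), where 3.2% of all probes were lower and 2.61% higher without overlap. In RNA of a whole culture, fewer cells with a transcript and less of it per cell cannot be told apart.

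The intervals of the members cover the spread between arrays under quantile normalization and not the choice of scaling. The 95% confidence interval of the log2 change lay between -0.5 and 0.5 for 82 of the 84 probes, the exceptions being the first probes of COX15 and ATP5PD, and the change itself was under 0.2 in size for 77 of the 84. Over all probes tested, 81.5% changed by under 0.2. The median spread within groups was an SD of 0.12 for the members and 0.14 for all probes. A p-value above the threshold does not show that a transcript was equal in both groups.

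**Figure D2:**
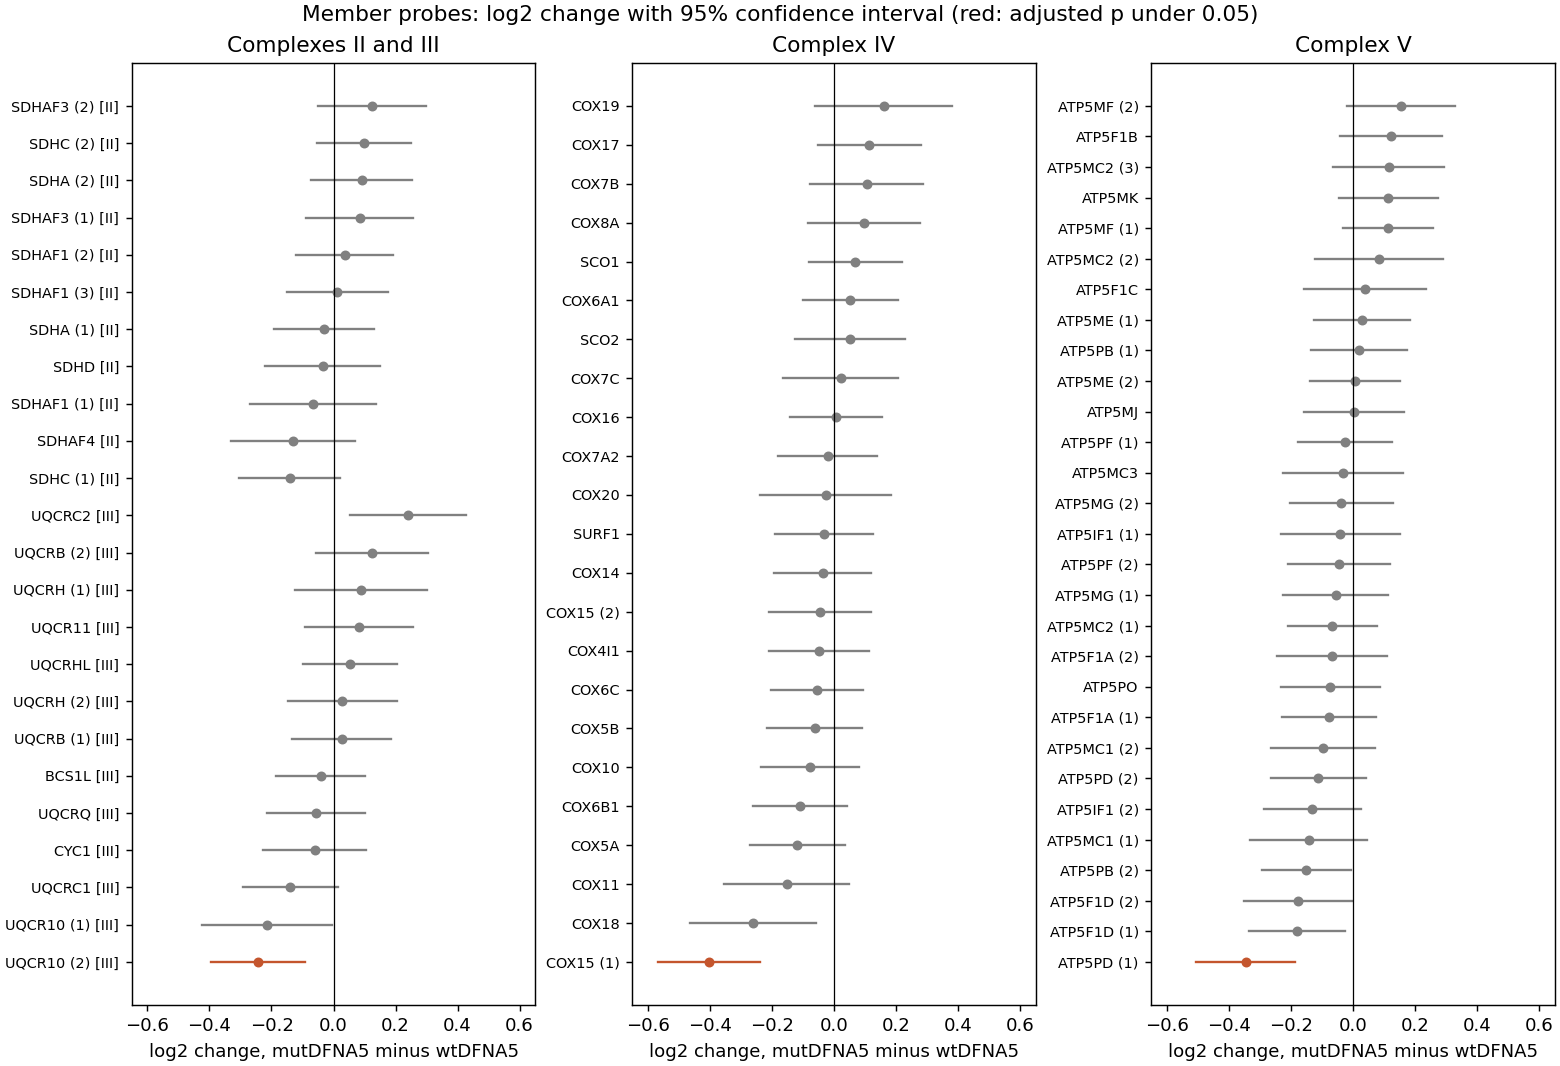
Log2 change (x axis, mutDFNA5 minus wtDFNA5) with its 95% confidence interval for the 76 tested probes of members that are not pseudogenes, by complex, with a number after the symbol where a gene had several probes. The 3 probes in red (COX15, ATP5PD and UQCR10) had an adjusted p under 0.05, and 74 of the 76 intervals lay between -0.5 and 0.5.

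COX15 had the largest change of the set. Its probe ILMN_1718309 read 9.06, 8.97, 8.94, 9.25 and 8.91 on the log2 scale in wtDFNA5 replicates 1 to 5, and 8.46 at the lowest, 8.64 at the median and 8.75 at the highest of the 6 mutDFNA5 arrays. All mutDFNA5 arrays were below all wtDFNA5 arrays. The log2 change was -0.40 (SE 0.08, adjusted p = 0.00288), a signal 1.32-fold higher with wtDFNA5. The other COX15 probe, detected on 9 of 11 arrays, read 7.45, 7.67, 7.53, 7.47 and 7.60 with wtDFNA5, and 7.30, 7.55 and 7.65 at the lowest, median and highest mutDFNA5 array. Here the groups overlapped, and the change was -0.05 (95% interval -0.21 to 0.12, adjusted p = 0.782). The signals of this probe lay near the lowest detected signals of the arrays, 7.36 to 7.46, so it had little room to show a fall.

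ATP5PD encodes subunit d of the stalk that holds the catalytic head of ATP synthase still. Its probe ILMN_1666372 read 13.82, 13.77, 13.64, 13.73 and 13.67 with wtDFNA5, and 13.20, 13.38 and 13.55 at the lowest, median and highest mutDFNA5 array. The groups did not overlap, with a log2 change of -0.35 (SE 0.08, adjusted p = 0.00741) and a signal 1.27-fold higher with wtDFNA5. The other ATP5PD probe read 13.64, 13.66, 13.69, 13.40 and 13.59 with wtDFNA5, and 13.40, 13.49 and 13.58 at the lowest, median and highest mutDFNA5 array. There wtDFNA5 replicate 4 was low and the groups overlapped, with a change of -0.11 (95% interval -0.27 to 0.04, adjusted p = 0.388).

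UQCR10 had 2 tested probes that were lower by a similar size. Probe ILMN_2366714 read 10.47, 10.44, 10.27, 10.25 and 10.39 with wtDFNA5, and 10.05, 10.11 and 10.25 at the lowest, median and highest mutDFNA5 array. The groups were separate by less than the rounding of these values, and the change was -0.24 (SE 0.07, adjusted p = 0.0419), a signal 1.18-fold higher with wtDFNA5. Probe ILMN_2366710 read 10.07, 10.22, 9.89, 9.70 and 10.15 with wtDFNA5, and 9.60, 9.77 and 10.11 at the lowest, median and highest mutDFNA5 array. The groups overlapped, and its change of -0.21 (SE 0.10) had an adjusted p of 0.206. One more UQCR10 probe was not detected on any array.

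Without wtDFNA5 replicate 4, the array that stood apart, the changes of these 3 probes were -0.35 for COX15 (adjusted p = 0.00875), -0.34 for ATP5PD (adjusted p = 0.0137) and -0.27 for UQCR10 (adjusted p = 0.0337). The call of UQCR10 was lost without wtDFNA5 replicate 1, 2 or 5 or mutDFNA5 replicate 1, 2, 3, 5 or 6, with adjusted p between 0.0510 and 0.0972. All 3 calls were lost when arrays were scaled to a common median of all probes, with adjusted p of 0.0998 for COX15, 0.210 for ATP5PD and 0.601 for UQCR10. In that scaling the median of all probes was 0.07 higher with mutDFNA5, 0.495% of all probes were down-regulated, and 2.59% were up-regulated. Median scaling aligns only the medians, so the narrower spread of wtDFNA5 replicate 4 stays in the values. Its part in the lost calls was not tested.

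**Figure D3:**
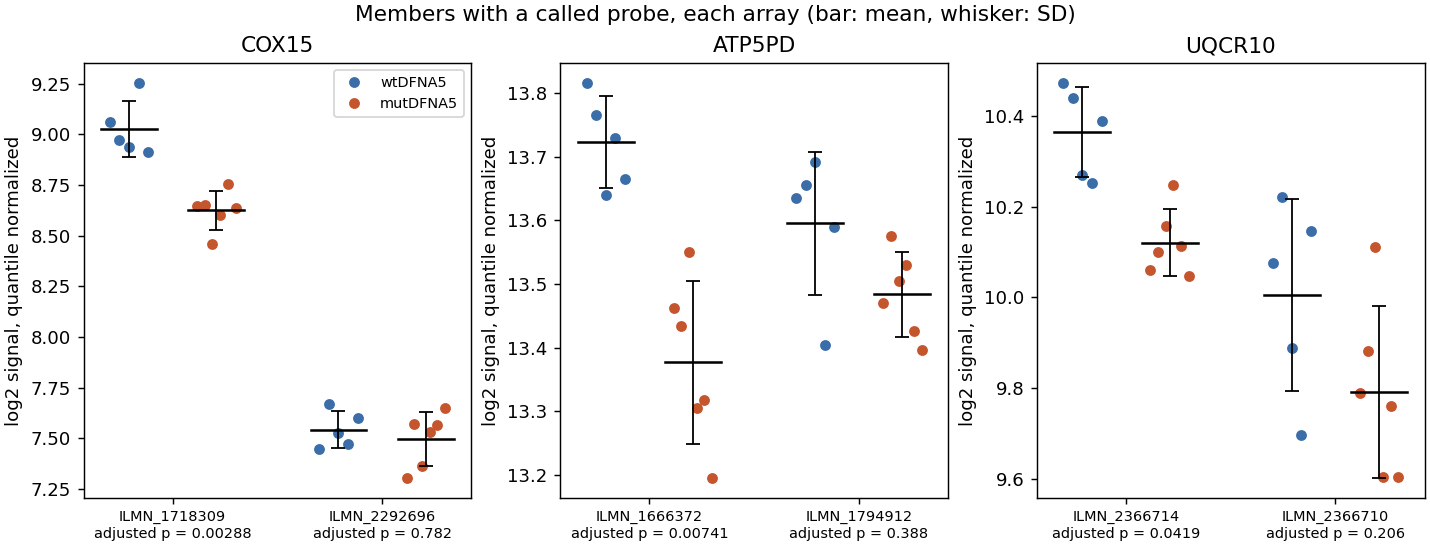
Quantile-normalized log2 signal (y axis) on each of the 5 wtDFNA5 (blue) and 6 mutDFNA5 (red) arrays for both tested probes of COX15, ATP5PD and UQCR10, with the mean as a bar and the SD as a whisker. For each gene the probe on the left had an adjusted p under 0.05 and groups that do not overlap, and the groups overlapped for the probe on the right.

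Where 2 or more probes of a member were tested, the change of one was set against that of the other array by array. There were 23 such pairs in 19 genes, and none differed after adjustment over the 23 pairs (exact permutation test, two-sided). The smallest p this test can give is 0.00216, and a single pair could pass the adjustment only at that value. The test therefore cannot show that the probes of a gene changed alike. The smallest p-values were 0.00866 for COX15, 0.013 for ATP5PD and 0.0152 for SDHC, each with an adjusted p of 0.116. With the mean of all tested probes of each gene, ATP5PD (-0.23, adjusted p = 0.0284) and COX15 (-0.22, adjusted p = 0.0343) were down-regulated, and UQCR10 changed by -0.23 with an adjusted p of 0.061.

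Complex II showed no call. Its 6 members had 11 tested probes with a median change of 0.01, between -0.14 and 0.12. The subunit SDHB had no probe among the members and was not examined. SDHA, which holds the flavin and oxidises succinate, lay between 11.001 and 11.25 with wtDFNA5 and between 10.98 and 11.25 with mutDFNA5 on one probe (change -0.03, adjusted p = 0.855), and its other probe changed by 0.09 (adjusted p = 0.531). SDHC and SDHD anchor the enzyme in the membrane and bind ubiquinone. One SDHC probe read 11.48, 11.41, 11.17, 11.40 and 11.41 with wtDFNA5, and 11.11, 11.22 and 11.40 at the lowest, median and highest mutDFNA5 array. It had the smallest p of the complex, with overlapping groups, a change of -0.14 and an adjusted p of 0.293, while the other SDHC probe changed by 0.10 (adjusted p = 0.447). SDHD lay between 11.02 and 11.62 with wtDFNA5, where replicate 4 was the lowest, and within that range with mutDFNA5 (change -0.04, adjusted p = 0.853).

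The assembly factors of complex II among the members were SDHAF1, SDHAF3 and SDHAF4, which help to mature and protect its subunits. Their 6 probes changed by between -0.13 and 0.12, none with a call. The probe of SDHAF3 with the brightest signal lay between 11.55 and 11.83 with wtDFNA5 and between 11.65 and 12.07 with mutDFNA5 (change 0.12, adjusted p = 0.402).

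Complex III had 10 members and 13 tested probes, of which that of UQCR10 was the 1 call, with a median change of 0.03. UQCRFS1 had no probe among the members and was not examined. UQCRC2, a core protein on the matrix side, read 10.91, 10.89, 10.51, 10.44 and 10.52 with wtDFNA5, and 10.78, 10.88 and 11.003 at the lowest, median and highest mutDFNA5 array. Replicates 3, 4 and 5 of wtDFNA5 lay below every mutDFNA5 array and replicates 1 and 2 lay among them. Its change was 0.24 (SE 0.09, adjusted p = 0.107), and without wtDFNA5 replicate 1 it was 0.30 (adjusted p = 0.0417). That fit leaves out the highest wtDFNA5 array and was picked after the values were seen, so it is not counted as a call. UQCRC1, the other core protein, changed by -0.14 (adjusted p = 0.266), with 4 of 6 mutDFNA5 arrays below every wtDFNA5 array.

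The catalytic subunit CYC1, the heme protein that reduces cytochrome c, lay between 12.94 and 13.33 with wtDFNA5 and between 13.08 and 13.28 with mutDFNA5 (change -0.06, adjusted p = 0.699). The small subunits UQCRB, UQCRH, UQCRQ and UQCR11 changed by between -0.06 and 0.12 over 6 probes, and BCS1L, the chaperone that inserts the iron-sulfur protein and in which mutations are a known cause of hearing loss, changed by -0.04 (95% interval -0.19 to 0.10, adjusted p = 0.773). UQCRHL is a near copy of UQCRH, and how far their probes tell them apart was not tested. Its signal was 14.34 to 14.56 with wtDFNA5 and 14.40 to 14.64 with mutDFNA5.

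Complex IV had 28 members, of which 22 were tested with 23 probes, and their median change was -0.03. The 10 tested subunits changed by between -0.12 and 0.11, with 0 calls. The lowest was COX5A, which lay between 14.20 and 14.46 with wtDFNA5 and between 14.12 and 14.29 with mutDFNA5 (adjusted p = 0.35). The highest was COX7B (adjusted p = 0.512), where all 6 mutDFNA5 arrays lay within the range of wtDFNA5. COX7C, the brightest probe of the complex, lay between 14.91 and 15.22 with wtDFNA5 and between 14.83 and 15.29 with mutDFNA5 (change 0.02, adjusted p = 0.918).

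Several subunits of complex IV exist as isoforms, and each set was measured in the form that most tissues use. COX4I1, COX6A1, COX6B1, COX7A2, COX7B and COX8A were detected on all 11 arrays. COX4I2, COX6A2, COX6B2, COX7A1, COX7B2 and COX8C, forms known from lung, heart and skeletal muscle or testis, were detected on none. Their 7 probes read between 6.67 and 7.37, where the lowest detected signal of an array was 7.36 to 7.46.

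**Figure D4:**
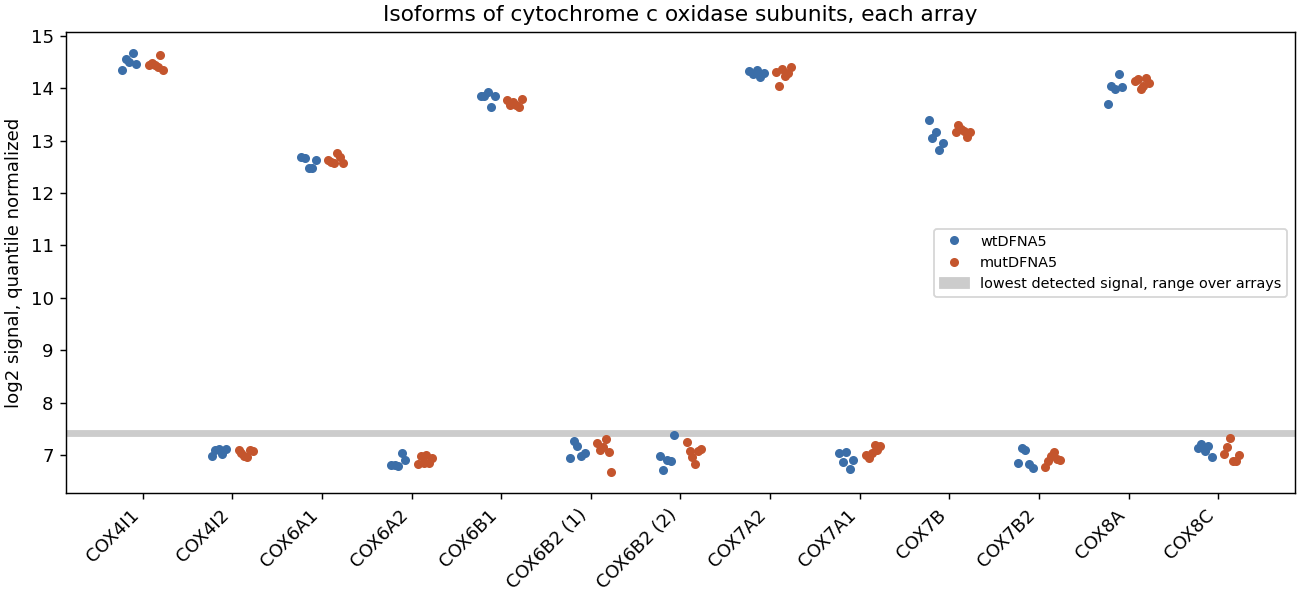
Quantile-normalized log2 signal (y axis) of the isoforms of 6 cytochrome c oxidase subunits on each wtDFNA5 (blue) and mutDFNA5 (red) array, with the range over arrays of the lowest detected signal as a grey band. The widely used form of each was above the band on every array in both groups, and the other forms were not detected on any array.

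The 12 assembly factors of complex IV had 13 tested probes and a median change of -0.03, with COX15 as the 1 call. COX18, which moves part of a mitochondrially encoded subunit across the inner membrane, read 7.80, 7.20, 7.76, 7.80 and 7.54 with wtDFNA5, and 7.25, 7.35 and 7.51 at the lowest, median and highest mutDFNA5 array. Replicates 1, 3, 4 and 5 of wtDFNA5 were above all mutDFNA5 arrays and replicate 2 was below them. The probe was detected on 7 of 11 arrays and changed by -0.26 (SE 0.10, adjusted p = 0.104). Without wtDFNA5 replicate 2, which Dixon's test did not flag, it changed by -0.37 (adjusted p = 0.013). That fit leaves out the array that goes against the direction and was picked after the values were seen. It is therefore not counted as a call. COX10, which makes the heme that COX15 then converts and which is also known as a hearing loss gene, lay between 10.25 and 10.37 with wtDFNA5 and between 10.05 and 10.40 with mutDFNA5 (change -0.08, 95% interval -0.23 to 0.08, adjusted p = 0.586). The copper delivery proteins COX11, COX17, COX19, SCO1 and SCO2 changed by between -0.15 and 0.16, and SURF1, whose loss is known to cause Leigh syndrome, by -0.03 (adjusted p = 0.846).

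Complex V had 18 members, of which 17 were tested with 29 probes, with a median change of -0.04 and ATP5PD as the 1 call. The peripheral stalk had 7 probes of ATP5PB, ATP5PD, ATP5PF and ATP5PO, 6 of them below 0, with a median of -0.07. Besides ATP5PD, one probe of ATP5PB, the b subunit, read 14.24, 14.21, 14.12, 14.27 and 14.15 with wtDFNA5, and 13.97, 14.06 and 14.10 at the lowest, median and highest mutDFNA5 array. The groups did not overlap, but the change of -0.15 (SE 0.07) had an adjusted p of 0.192. The other ATP5PB probe changed by 0.02 (adjusted p = 0.909), with all 6 mutDFNA5 arrays within the range of wtDFNA5.

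In the catalytic head, ATP5F1A, ATP5F1B, ATP5F1C and ATP5F1D had 6 tested probes and no call. ATP5F1D, the delta subunit of the central stalk, had the smallest p of the uncalled probes of complex V. It read 13.07, 13.18, 13.08, 13.23 and 13.27 with wtDFNA5, and 12.87, 12.97 and 13.10 at the lowest, median and highest mutDFNA5 array. The groups overlapped by 2 mutDFNA5 arrays, and both ATP5F1D probes changed by -0.18 (adjusted p = 0.14 and 0.203). ATP5F1B, the catalytic beta subunit and the brightest of the complex, lay between 14.75 and 14.93 with wtDFNA5 and between 14.69 and 15.12 with mutDFNA5 (change 0.12, adjusted p = 0.375). The probe of ATP5F1E, the epsilon subunit, was not detected on any array. Both probes annotated to its copy ATP5F1EP2 were detected on all 11 arrays, with mean signals of 14.74 and 14.34. Which of these transcripts a probe measured was not tested, so ATP5F1E cannot be called absent.

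The rotor ring is built from 1 protein that ATP5MC1, ATP5MC2 and ATP5MC3 all encode. Their 6 probes changed by between -0.14 and 0.11, with the lowest in ATP5MC1 (adjusted p = 0.363) and the highest in ATP5MC2 (adjusted p = 0.459), and the ATP5MC3 probe changed by -0.03 (adjusted p = 0.873). The 8 tested probes of the other membrane subunits, ATP5ME, ATP5MF, ATP5MG, ATP5MJ and ATP5MK, changed by between -0.06 and 0.15, 2 of them below 0. ATP5IF1, the inhibitor that stops ATP synthase from running backwards, changed by -0.04 and -0.13 on its 2 probes (adjusted p = 0.835 and 0.308).

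The 5 pseudogenes or copies, SDHAP1, SDHAP3, SDHAP4, UQCRBP1 and ATP5F1EP2, had 22 probes, of which 8 were tested with 0 calls. Their sequences are close to those of SDHA, UQCRB and ATP5F1E, and which transcript a probe measured was not tested. The smallest p was that of an SDHAP1 probe, with a change of 0.23 (SE 0.09, adjusted p = 0.121) and 2 of 6 mutDFNA5 arrays above every wtDFNA5 array. SDHAP3 and SDHAP4 had no probe that passed the filter.

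Around these complexes, 65 further genes were examined that carry electrons or make ubiquinone, assemble the complexes or regulate their expression. Of these, 55 were tested with 67 probes, of which 7 were down-regulated and 1 up-regulated, with a median change of -0.04. All 7 down-regulated calls were lost when arrays were scaled to a common median of all probes, 2 probes were down-regulated with normexp background correction, and 3 without mutDFNA5 replicate 2 or 6. The genes of electron carriers and ubiquinone synthesis had 5 of 19 probes down-regulated and 0 up-regulated, with a median of -0.15 and 14 of 19 below 0. The other assembly factors had 1 of 29 down-regulated and a median of -0.06, and the regulators 1 of 19 down-regulated and 1 up-regulated with a median of 0.08. These counts stand beside 4.31% down-regulated and 3.91% up-regulated of all probes, and whether the lists differ from other genes was not tested.

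In ubiquinone synthesis, COQ5, the C-methyltransferase of the ring, read 11.28, 11.15, 11.05, 11.25 and 11.06 with wtDFNA5, and 10.70, 10.84 and 10.94 at the lowest, median and highest mutDFNA5 array. The groups did not overlap (change -0.33, SE 0.08, adjusted p = 0.00843). COQ6, a ring hydroxylase, changed by -0.35 on one probe (SE 0.09, adjusted p = 0.0126) and by -0.16 on the other (adjusted p = 0.2). COQ8B, an atypical kinase, fell by 0.31 (adjusted p = 0.0356), and COQ9, a lipid-binding partner of COQ7, fell by 0.25 (adjusted p = 0.0449). COQ7, the hydroxylase itself, changed by 0.11 (adjusted p = 0.403), and COQ2 and COQ3 by -0.03 and 0.03.

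Among the carriers, ETFB, the beta subunit of the flavoprotein that brings electrons from fatty acid oxidation, fell by 0.34 on one probe (SE 0.09, adjusted p = 0.0237) and changed by -0.21 on the other (adjusted p = 0.114). Its partner ETFA changed by -0.04 (adjusted p = 0.819) and their acceptor ETFDH by -0.13 (adjusted p = 0.314). DHODH, the pyrimidine synthesis enzyme that also reduces ubiquinone, changed by -0.32 with an adjusted p of 0.051. CYCS, cytochrome c, changed by 0.06 (95% interval -0.16 to 0.28, adjusted p = 0.773).

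Of the remaining lists, the assembly factor ATPAF1, a chaperone of the beta subunit of ATP synthase, fell by 0.26 on one probe (adjusted p = 0.0418) and changed by -0.15 on the other (adjusted p = 0.212). TFB1M, an rRNA methyltransferase, lay between 10.21 and 10.43 with wtDFNA5 and between 9.76 and 10.27 with mutDFNA5 (change -0.32, adjusted p = 0.0237). TFB2M, which opens mitochondrial promoters, lay on one probe between 10.82 and 11.33 with wtDFNA5 and between 11.20 and 11.74 with mutDFNA5 (change 0.36, adjusted p = 0.0315), and its other probe changed by 0.14 (95% interval -0.04 to 0.32, adjusted p = 0.344). Probes of PPARGC1A, the coactivator PGC-1alpha, were not detected on any array. Of the factors with a searched motif, NRF1 had probes detected on 2, 0 and 1 arrays, and none passed the filter. GABPA changed by 0.19 (adjusted p = 0.263) on its tested probe. YY1 changed by 0.33 (adjusted p = 0.0598) on one probe and by -0.005 (adjusted p = 0.983) on the other.

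**Figure D5:**
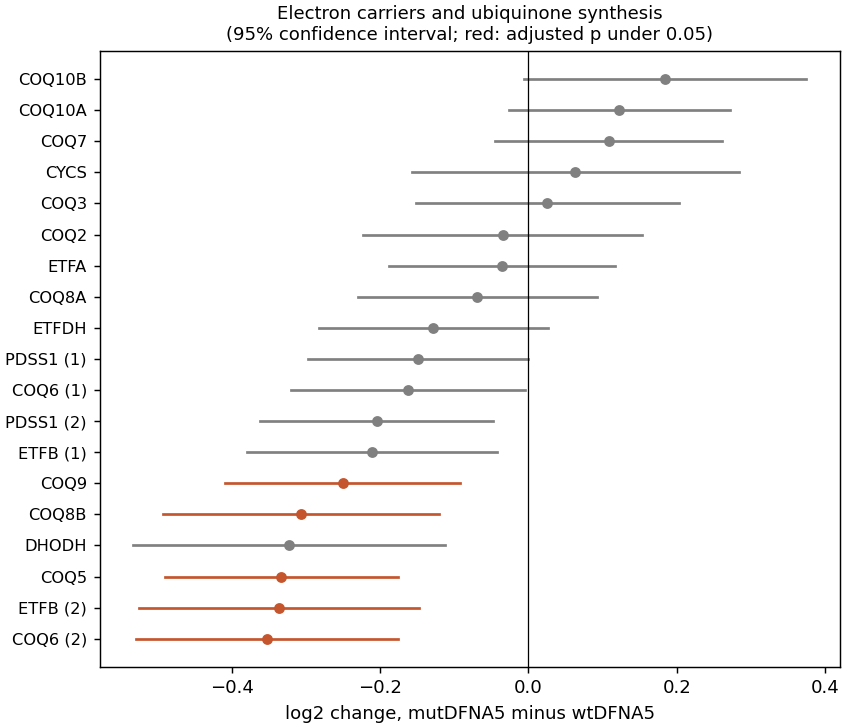
Log2 change (x axis, mutDFNA5 minus wtDFNA5) with its 95% confidence interval for the 19 tested probes of electron carriers and ubiquinone synthesis, with a number where a gene had several probes. The 5 probes in red (COQ5, COQ6, COQ8B, COQ9 and ETFB) had an adjusted p under 0.05 and lay below 0.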

How the data were processed

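Illumina HT12 beadchips measured labelled cRNA of 5 wtDFNA5 and 6 mutDFNA5 samples, with 1 sample on each array. Groups came from the labels. The authors deposited log2 signals per probe that were not normalized between arrays, with detection p-values beside them, and a table of quantile-normalized log2 values. The study's methods name beadarray, quality control and quantile normalization, and the submitters' processing notes name limma 3.24.4. No background correction is named, and if none was applied, changes of dim probes would be understated. Quantile normalization would remove a shift of most transcripts.

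Here limma 3.58.1 (R 4.3.3) was used to quantile normalize the signals, with a difference of up to 0.0191 to the authors' own normalization. Of 42000 probes, the 14542 whose detection p was under 0.01 on 5 or more arrays were kept. The test was limma's moderated test of mutDFNA5 minus wtDFNA5, two-sided, on all arrays, with Benjamini-Hochberg adjustment over the 14542 probes and a threshold of 0.05. Probes were named through the platform annotation, whose symbols for the 110 member probes equal those of RefSeq, and different probes of a gene were kept apart.

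Values are given for members with a called probe, and for the uncalled probe with the smallest p and the brightest probe of each complex. They are also given for isoform sets, subunits of complex II, COX10 and BCS1L. These values are single arrays, ranges over arrays, changes or points in a figure. ATP5PB and the further genes of the pathway were described after their values were seen. The members and lists were chosen with earlier results of these data known. The comparison of probes of 1 gene (exact, 462 permutations, smallest possible p 0.00216) was also added after seeing the data. No batch is given in the labels or files used here.

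Alternatives were normexp background correction (offset 16), median scaling over all probes or over probes detected on all arrays, the authors' table, no filter, detection on all arrays, a trended robust prior, array weights, the replicate number as a block, leaving out each array, an adjusted p under 0.01 and the mean of the probes of a gene.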

Additional observations from a re-analysis of the deposited data

Results flagged for a closer look

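For 3 of the 70 groups of arrays of named member probes that were checked, 1 array lay far from the rest of its group (Dixon's test), where chance gives about 1 in 20. For SDHC, wtDFNA5 replicate 3 read 11.17 on one probe, below 11.40 to 11.48 on the other wtDFNA5 arrays. For COX6B1, a subunit of complex IV that faces the intermembrane space, wtDFNA5 replicate 4 read 13.63, below 13.84 to 13.92 on the others. For ATP5MC3, mutDFNA5 replicate 2 read 9.76, above 9.44 to 9.54 on the others. None of these probes had an adjusted p under 0.05.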

How the results depend on the processing

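The count of down-regulated member probes, 3, fell to 0 with median scaling over all probes and was 2 to 3 with 1 array left out. The probes were not always the same, since without wtDFNA5 replicate 2 the 3 held COX18 in place of UQCR10. The count of up-regulated member probes, 0, was 0 to 1 with 1 array left out, the 1 being UQCRC2 without wtDFNA5 replicate 1. UQCR10 also lost its call with normexp (adjusted p = 0.0574), with median scaling over probes detected on all arrays (0.0783) and with no filter (0.103). Of 698 values of 35 named probes under 20 settings, 650 kept direction and side of the threshold.

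The down-regulated probes of the further pathway genes, 7, came to 2 with normexp, 0 with median scaling over all probes, 4 with no filter, 1 at an adjusted p under 0.01 and 3 to 8 with 1 array left out (4 without wtDFNA5 replicate 4, 3 without mutDFNA5 replicate 2 or 6). The 1 up-regulated probe, TFB2M, was lost with normexp and no filter and at an adjusted p under 0.01 (0 each), the count was 2 with the trended robust prior, and it was 0 to 2 with 1 array left out (0 without wtDFNA5 replicate 2 or 4 or mutDFNA5 replicate 3 or 4, 2 without wtDFNA5 replicate 1). The cause was not tested.

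Replicate numbers did not pair the arrays, since the correlations of same-numbered deviations were -0.04, -0.05, -0.06, 0.11 and 0.01. With the replicate block, which leaves mutDFNA5 replicate 6 out of the comparison, 2 member probes were down-regulated and 0 up-regulated, and of the further genes 3 were down-regulated and 1 up-regulated. UQCR10 changed by -0.23 (adjusted p = 0.133) in that fit, and 1 ATP5PB probe by -0.00123.

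SDHAF1 was measured by 3 probes, which are named by their identifiers here. The direction reversed for 15 uncalled probes, none of which was called under the setting that reversed it. With median scaling over all probes the log2 changes were SDHAF1 (ILMN_1693124) 0.0212, SDHA 0.0707, SDHD 0.0739, BCS1L 0.077, COX10 0.0384, COX7A2 0.0165, COX7C -0.156, ATP5MC1 0.00861, ATP5MC2 0.00276 and ATP5MC3 0.0652. With median scaling over probes detected on all arrays they were SDHAF1 (ILMN_1805720) -0.0295, UQCRHL -0.0147, COX7C -0.252 and ATP5F1B -0.0788, and with array weights SDHAF1 (ILMN_2070355) -0.00285 and COX7C -0.00035. With 1 array left out, the SDHAF1 probe ILMN_2070355 ran from -0.0304 to 0.0492, SDHA from -0.063 to 0.0031, SDHD from -0.13 to 0.0197, COX7A2 from -0.0474 to 0.0258, COX7C from -0.021 to 0.0713, ATP5MC3 from -0.0964 to 0.0352 and ATP5PB from -0.0133 to 0.0557.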
